A study of Homo sapiens with 23 samples.

Results

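The knockout change shared by 2 enhancer and chromatin regulators was read from poly(A) RNA-seq of HCT116 cells, an established line from a human colorectal carcinoma. All 8 RNA-seq libraries of a series of 23 samples entered 1 model, which set the 4 knockout libraries against the 4 unedited libraries and kept the experimental set as a block. The first set holds 2 libraries labelled WT and 2 labelled MLL4 KO, and the second holds 2 labelled control (a second label gives their genotype as WT too) and 2 labelled BAP1 KO. The 15 ChIP-seq samples were not analysed here. The names of the deposited tables carry osTir1F74G for control and BAP1 KO libraries and not for WT and MLL4 KO libraries, and the labels do not say what the control cells carry. The suffixes that follow it differ between the tables of BAP1 KO replicates and are not explained by the labels. The sources used here do not give how the knockouts were made or whether a replicate is its own culture or clone, so a p-value measures the spread between these libraries, which may be technical. Anything else that both knockout lines share against their unedited lines, such as editing or passage, cannot be told apart from the knockouts.

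KMT2D encodes MLL4, which works in a large complex with UTX and adds single methyl groups to lysine 4 of histone H3 at enhancers. BAP1 takes ubiquitin off histone H2A in the nucleus and so opposes a mark set by Polycomb complexes. Both genes are known as tumour suppressors. The series sets the question of how far the binding of each protein and the expression of their target genes depend on one another, and the shared change in expression is the side of it described here.

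Library depth ran from 24.8M to 42.2M counts over 28105 genes, of which 16831 had enough counts to be tested. Replicates of a group correlated at 0.976 to 0.992 across genes (Pearson, log2 CPM, read counts scaled to library size), and no pair of libraries was identical. Along the first principal component (40.4% of the variance) the sets lay apart, with WT libraries farther out than MLL4 KO libraries and WT replicate 2 farthest. Along the second (25.5%) all 4 knockout libraries lay below 0 and all 4 unedited libraries above it. Of 10 epithelial and colorectal markers, 9 had reads in every library (CDX1 had none), with summed levels of 4010 to 4186 CPM in WT cells, 5667 to 5892 in MLL4 KO, 6893 to 6905 in control and 3258 to 4002 in BAP1 KO. Summed fibroblast markers lay between 26.0 and 55.2 CPM, nearly all of it COL1A1, with DCN, LUM and POSTN at 0 in all libraries. Endothelial markers summed to 0.781 to 2.32 CPM and blood cell markers to 5.33 to 29.0 CPM, of which CD68 gave 4.03 to 28.2 and HBA1 at most 4.34, with CD3E, CD2, MS4A1 and HBB at 0.

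The transcripts of the targeted genes did not mark the knockout libraries. KMT2D stood at 309 and 371 CPM in WT cells, 280 and 406 in MLL4 KO, 239 and 259 in control and 267 and 228 in BAP1 KO (replicates 1 and 2, as in all values below). BAP1 stood at 77.9 and 92.1 CPM in WT cells, 73.2 and 69.8 in MLL4 KO, 56.7 and 62.1 in control and 67.4 and 57.4 in BAP1 KO. Neither gene passed the test of the common effect, with log2 changes of 0.00 ± 0.14 (SE; adjusted p = 0.998) for KMT2D and -0.09 ± 0.11 (adjusted p = 0.652) for BAP1. An edit that stops a protein need not lower its transcript, so these counts give no check of the labels, and MLL4 KO and BAP1 KO stand for the labels throughout.

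Across genes, 787 rose and 695 fell in the knockouts across both sets at an adjusted p below 0.05, which is 4.68% and 4.13% of the genes tested and 8.81% together. An unadjusted p below 0.05 was reached by 4719 genes. Among those that rose, 347 rose at least 2-fold and 80 at least 4-fold, and among those that fell, 168 fell at least 2-fold and 54 at least 4-fold. The median of the risen genes was a log2 change of 0.90, with 0.80 in the MLL4 KO set and 0.93 in the BAP1 KO set. The median of the fallen genes was -0.67, with -0.66 and -0.71, and the median of all genes tested was 0.01. Because the model takes a gap between the sets as spread, a gene passed only where the change was large beside both the replicates and that gap. Thus 784 of 787 risen genes and all 695 fallen genes had the same sign in both sets, which follows from the test and is no support for it.

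Size in each set was then read from a fit with a mean per group. In that fit 3219 genes passed for MLL4 KO against WT (19.1%), with 9.13% of all genes higher and 10% lower. For BAP1 KO against control 3778 passed (22.4%), with 12.1% higher and 10.4% lower. These counts, and the set counts of the lists below, rest on 1 estimate of spread shared by all 8 libraries. Fitted on the 4 libraries of its own set alone, MLL4 KO gave 65 calls and BAP1 KO 6626. Of the 1008 that passed in both, 369 were higher in both and 301 lower in both, and 367 and 299 of these also passed the common effect. A further 125 were higher in MLL4 KO and lower in BAP1 KO, 213 the reverse, and 0 of these 338 passed the common effect. Among genes with a common change, 459 risen and 299 fallen genes moved at least 1.5-fold in each set, and 212 and 97 at least 2-fold. Another 35 risen and 29 fallen genes passed in neither set alone. Over all genes tested the set changes were weakly related, with the same sign in 54.4% of genes and a Pearson r of 0.11 (Spearman 0.12), given as a description across genes, which are not independent. The sets share no library.

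**Figure D1:**
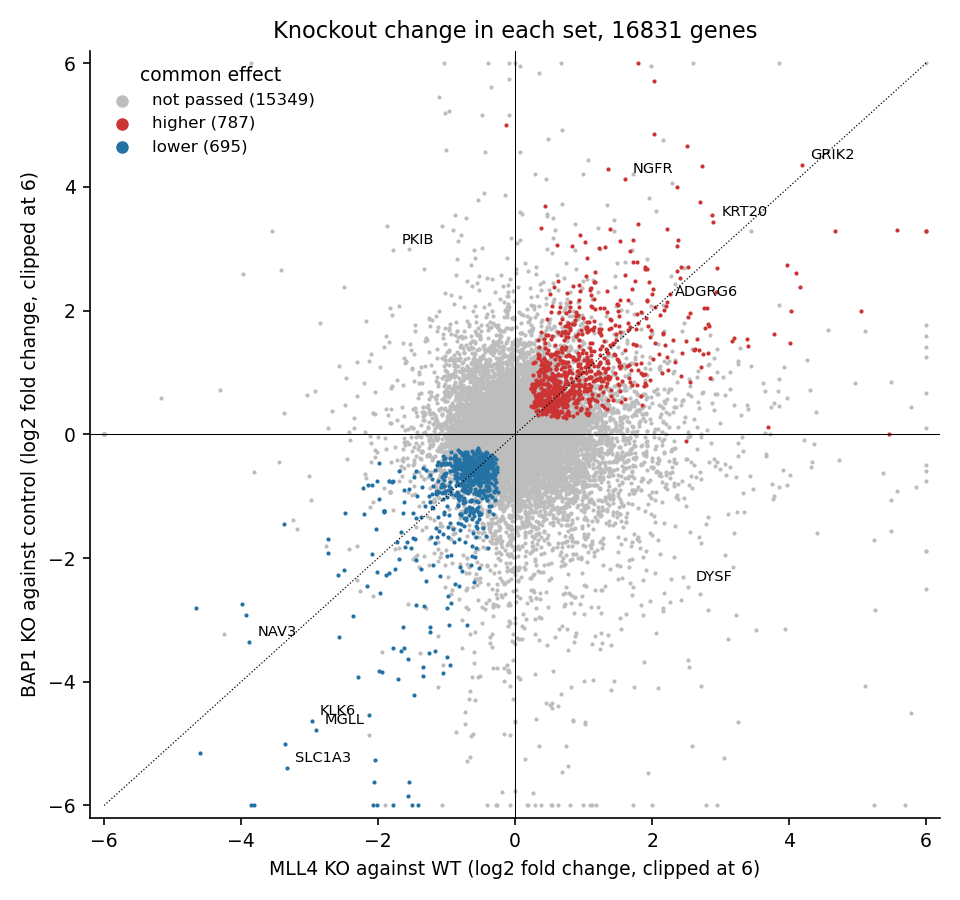
Each point is 1 of 16831 genes, placed by its log2 fold change in MLL4 KO against WT (x axis) and in BAP1 KO against control (y axis), both clipped at 6. Red points (787) rose and blue points (695) fell in the common effect; all but 3 of them lie in the quadrants of equal sign on either side of the dotted line of equal change, while genes far from 0 in opposite corners, such as DYSF and PKIB, are grey.

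Overlap was also counted plainly, on the same scaled libraries. The test favours genes whose sides lie apart, so called genes found among these are no support for it. Genes set apart in opposite directions in the sets were not counted. All 4 knockout libraries lay above all 4 unedited libraries for 1089 genes (6.47%) and below them for 995 (5.91%). These held 549 of the 787 risen and 478 of the 695 fallen genes. Within both sets, the knockout pair lay above the unedited pair for 2240 genes (13.3%) and below it for 2107 (12.5%), with 770 of the risen and 685 of the fallen genes among them.

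The calls rest to a large part on the second set, whose control libraries lie closest together. Without control replicate 1 only 47 genes rose and 18 fell, and without control replicate 2 only 50 and 25. Leaving out BAP1 KO replicate 1 left 180 and 100, BAP1 KO replicate 2 left 141 and 68, MLL4 KO replicate 1 left 406 and 270, MLL4 KO replicate 2 left 517 and 407, and WT replicate 2 left 570 and 450. Without WT replicate 1 the counts were 862 and 758. The signs of all 1482 genes were the same in each of these fits, and 57 of them (40 higher, 17 lower) stayed past the threshold in all. For each gene given below with its change and adjusted p, it is said whether it did.

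**Figure D2:**
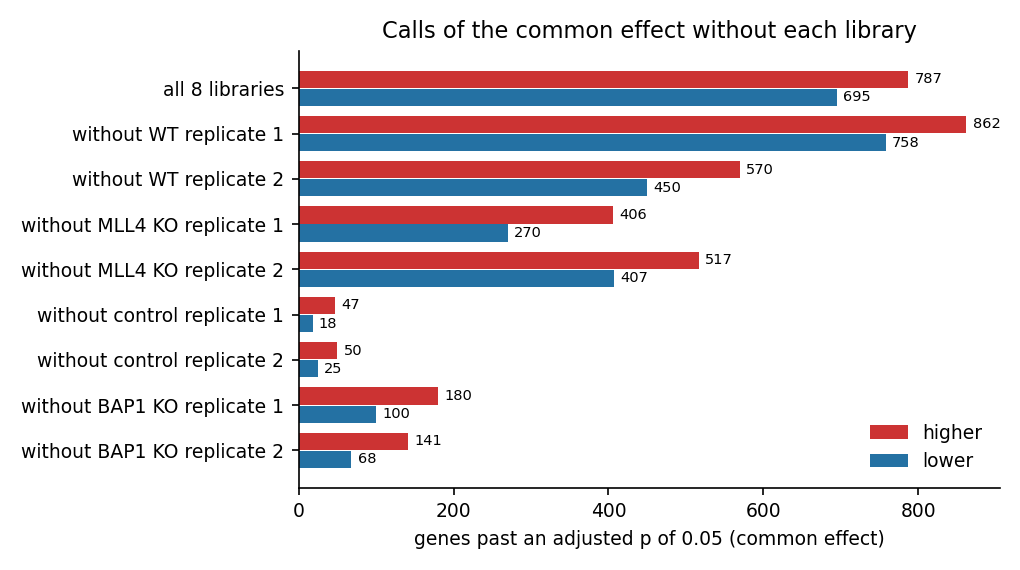
Bars give the number of genes past an adjusted p of 0.05 in the common effect, higher (red) and lower (blue) in the knockouts, for all 8 libraries and without each library in turn. The count falls from 787 and 695 to 47 and 18 without control replicate 1 and to 50 and 25 without control replicate 2.

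Among the genes that fell furthest in both knockouts were protease, lipase and transporter genes. SLC1A3, a glutamate transporter (chr5:36596588-36688334, GRCh38.p14), stood at 26.5 and 18.8 CPM in WT cells, 2.12 and 2.38 in MLL4 KO, 13.3 and 12.7 in control and 0.255 and 0.356 in BAP1 KO. Its log2 change was -3.99 ± 0.36 (adjusted p = 0.00486). MGLL, the lipase that cleaves monoacylglycerols (chr3:127689066-127823185), fell by 3.77 ± 0.41 (adjusted p = 0.00695), from 16 and 23.5 CPM to 2.05 and 3.34 in the MLL4 KO set and from 41.8 and 40.1 to 1.28 and 1.71 in the BAP1 KO set. All 4 knockout libraries lay below all 4 unedited ones for both genes. The drop of both was larger in the BAP1 KO set, and the difference between the sets passed its own test (adjusted p = 0.0215 for SLC1A3 and 0.0168 for MGLL).

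KLK6, a secreted serine protease of the kallikrein family (chr19:50958631-50969591), went from 39.8 and 18.5 CPM in WT to 2.96 and 4.55 in MLL4 KO, and from 117 and 125 in control to 3.41 and 6.38 in BAP1 KO, a common log2 change of -3.81 ± 0.44 (adjusted p = 0.00774). Its neighbour KLK5, chosen here after its values were seen, had 1.32 and 0.219 CPM in WT cells, 0 and 0.0602 in MLL4 KO, 10.6 and 8.97 in control and 0.0638 and 0.499 in BAP1 KO. The groups of KLK5 did not overlap within a set, but BAP1 KO replicate 2 lay above WT replicate 2. Its adjusted p was 0.00521. Of their relatives, KLK7 (-1.49, adjusted p = 0.0637), KLK8 (-1.43, adjusted p = 0.129) and KLK10 (-1.09, adjusted p = 0.55) did not pass. NAV3, a microtubule-binding neuron navigator, went from 18.2 and 13.9 CPM to 0.341 and 1.99 in the MLL4 KO set and from 2.27 and 2.59 to 0.319 and 0.142 in the BAP1 KO set (log2 change -3.73 ± 0.47, adjusted p = 0.00917). DACT1, a modulator of WNT signalling, fell from 5.16 and 8.41 CPM to 1.25 and 1.14 and from 3.45 and 3.23 to 0.574 and 0.890 (log2 change -2.37 ± 0.25, adjusted p = 0.00667). For KLK6, NAV3 and DACT1 all knockout libraries lay below all unedited ones.

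Further genes fell in both sets. EPN3, an epsin of clathrin-coated pits, changed by -2.08 ± 0.25 (adjusted p = 0.0081), with -1.89 in the MLL4 KO set and -2.28 in the BAP1 KO set. IRAG1, a substrate of cGMP-dependent kinase that shares its locus with IRAG1-AS1, changed by -2.61 ± 0.33 (adjusted p = 0.00917), and by more in BAP1 KO (-3.82) than in MLL4 KO (-1.99). ATP8B1, a phospholipid flippase, was chosen after its values were seen and changed by -1.77 ± 0.18 (adjusted p = 0.00667). The calls of SLC1A3, MGLL, KLK6, KLK5, NAV3, DACT1, EPN3, IRAG1 and ATP8B1 held without each of the 8 libraries in turn. By contrast GALNT5 (-3.29), INAVA (-2.74) and CRYBG2 (-2.01) each lost the call without control replicate 1 and without control replicate 2. GALNT5 and INAVA also lost it without either BAP1 KO library, GALNT5 without WT replicate 2 or MLL4 KO replicate 1, and INAVA without MLL4 KO replicate 2 (adjusted p between 0.0517 and 0.0755 where lost).

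The clearest rise was that of ADGRG6, an adhesion G protein-coupled receptor (chr6:142302007-142446261). It stood at 77.1 and 59.2 CPM in WT cells, 348 and 284 in MLL4 KO, 98.4 and 102 in control and 475 and 402 in BAP1 KO. The change was nearly equal in the sets, 2.21 ± 0.17 in MLL4 KO and 2.13 ± 0.17 in BAP1 KO, with a common log2 change of 2.17 ± 0.13 (adjusted p = 0.00144). It had the smallest p of all genes tested, and its call held without each library in turn and under all 17 other settings. KRT20, a keratin of mature intestinal epithelium, rose from 0.388 and 0.281 CPM to 2.64 and 2.26 in the MLL4 KO set and from 0.862 and 0.513 to 6.64 and 7.59 in the BAP1 KO set, a log2 change of 3.22 ± 0.26 (adjusted p = 0.0043). KRT23 rose from 10.8 and 7.94 CPM to 22.6 and 27.7 and from 22.8 and 23.5 to 61.4 and 66.9 (1.45 ± 0.13, adjusted p = 0.00477). The groups of KRT23 did not overlap within a set, though MLL4 KO replicate 1 lay below both control libraries.

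Other risen genes belonged to signalling, stress and matrix groups. APOLD1, an early response gene of endothelial cells, rose by a log2 of 2.26 ± 0.20 (adjusted p = 0.00477), from 2.64 and 1.75 CPM to 9.51 and 11.3 and from 1.18 and 1.69 to 7.59 and 6.55. TGFB1I1, a focal adhesion adaptor also called HIC-5, rose by 2.14 ± 0.23 (adjusted p = 0.00673), from 4.77 and 4.16 CPM to 21.2 and 19.8 and from 3.06 and 4.51 to 21.3 and 11. GRIK2, a kainate-type glutamate receptor, was nearly silent in unedited cells, at 0.349 and 0.0938 CPM in WT and 0.157 and 0.0513 in control, and reached 5.37 and 2.17 in MLL4 KO and 2.52 and 1.39 in BAP1 KO (4.23 ± 0.53, adjusted p = 0.0075). In all 3 genes every knockout library lay above every unedited one.

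MRC2, a collagen-binding endocytic receptor, rose by 2.21 ± 0.23 (adjusted p = 0.00667), and DDIT4L, an inhibitor of mTOR signalling, by 2.18 ± 0.21 (adjusted p = 0.00521). SAMD5 rose by 1.67 in MLL4 KO and 2.97 in BAP1 KO, sizes that differed (adjusted p = 0.0137). TIMP3, an inhibitor of matrix proteases that lies within SYN3, rose by 2.03 ± 0.26 (adjusted p = 0.00917) from levels far apart in the sets: 3.41 and 2.94 CPM in WT cells, 14.0 and 11.1 in MLL4 KO, 0.0783 and 0.154 in control and 0.383 and 0.855 in BAP1 KO. Chosen after their values were seen, the growth factor gene IGF2 rose by 1.47 ± 0.12 (adjusted p = 0.0043), RET, a receptor tyrosine kinase, by 1.79 ± 0.18 (adjusted p = 0.00543) and MATN2, a matrix protein, by 1.84 ± 0.16 (adjusted p = 0.00457). IGF2 went from 30.4 and 28.1 CPM to 66.6 and 72.5 and from 21.9 and 22.4 to 75.1 and 69.3, and it shares reads with the readthrough gene INS-IGF2. RET stood at 5.66 to 8.53 CPM in the unedited libraries and 19.6 to 26.9 in the knockouts, so the sides did not overlap. All risen genes named so far kept their call without each library in turn. SESN3 (2.75) and F10 (2.45) did not: both lost it without control replicate 1, control replicate 2 or BAP1 KO replicate 2, SESN3 without BAP1 KO replicate 1, and F10 without WT replicate 2 or MLL4 KO replicate 1 (adjusted p between 0.0501 and 0.0848).

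**Figure D3:**
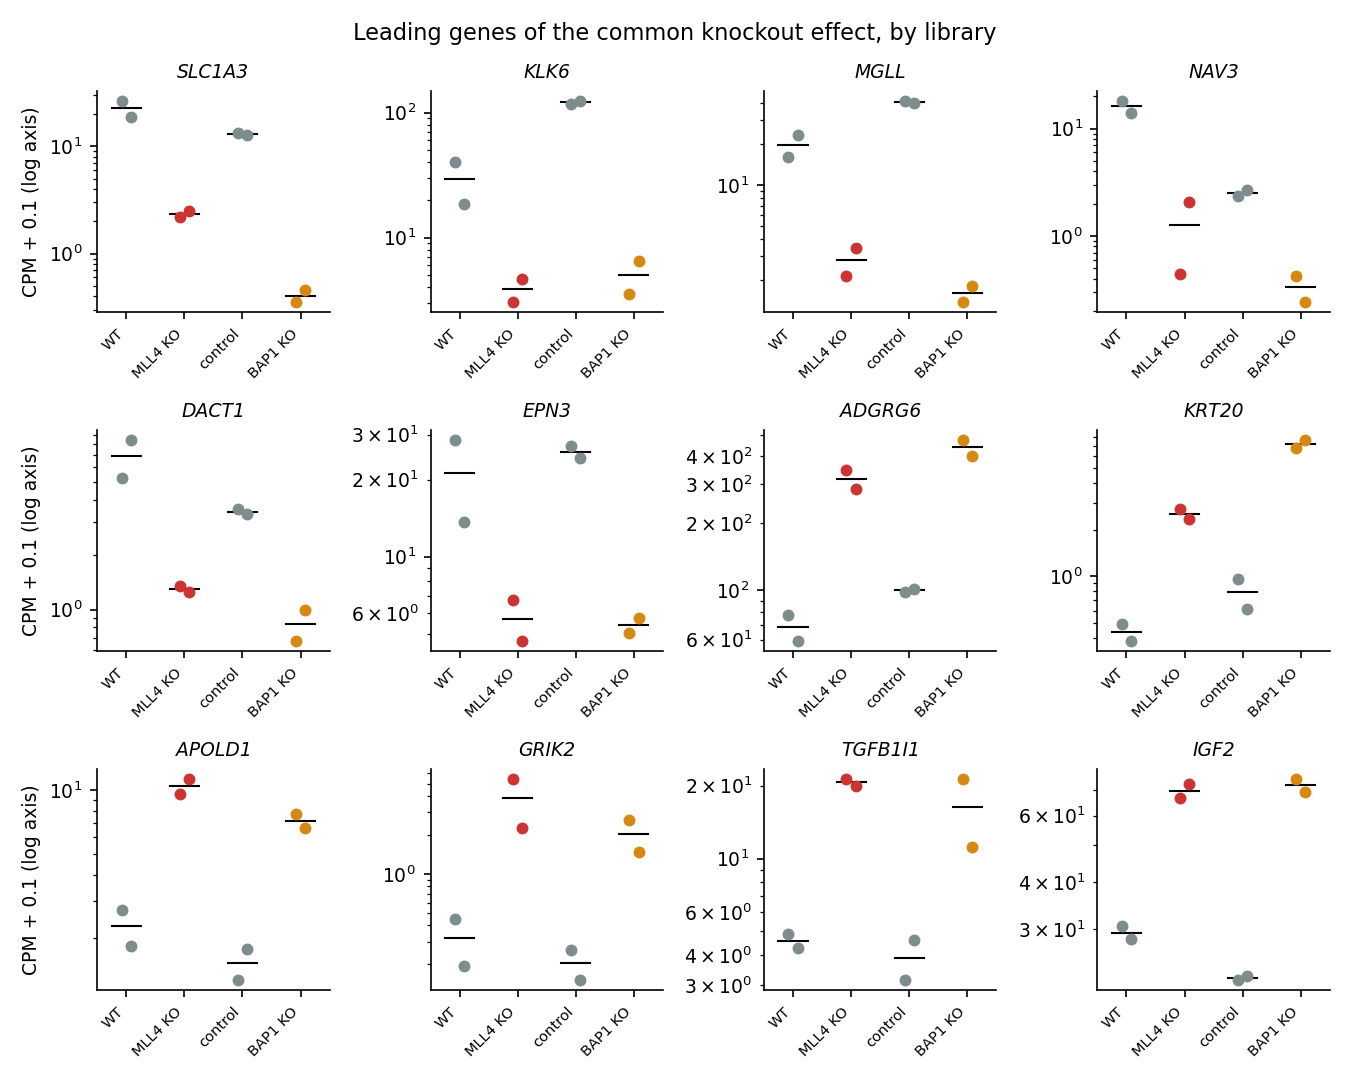
CPM + 0.1 of 12 leading genes in each library on log axes, by group; points are libraries and bars the mean of 2. In every panel the knockout points lie below (SLC1A3, KLK6, MGLL, NAV3, DACT1, EPN3) or above (the other 6) the unedited points of their own set.

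The most uniform group was ribosome biogenesis, together with MYC and genes known to depend on it. Of 48 tested members 31 fell and 0 rose, beside 4.13% of all genes that fell, and the median log2 change was -0.62 beside 0.01 for all genes. The median was -0.64 in the MLL4 KO set, where 32 members passed lower, and -0.55 in the BAP1 KO set, where 25 did. No member had a change above 0, though with upper-quartile scaling 1 did and without single libraries up to 2 did, and for 0 members did the sizes differ between the sets. These genes make and fold ribosomal RNA, assemble the pre-ribosomal subunits in the nucleolus, or, like SRM, supply the growing cell with polyamines. The list was put together with these data in view and gets no test of its own.

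RRS1, an assembly factor of the large subunit, changed by a log2 of -1.03 ± 0.12 (adjusted p = 0.0075), from 68.8 and 92.6 CPM to 38.5 and 34.7 in the MLL4 KO set and from 53.4 and 53.4 to 28.7 and 28.1 in the BAP1 KO set. NOL6, a nucleolar protein of the small subunit processome, fell by 1.01 ± 0.15 (adjusted p = 0.0133), from 73.3 and 113 CPM to 50.9 and 42.0 and from 65.9 and 66.3 to 35.5 and 29.6. MYC itself stood at 398 and 403 CPM in WT cells, 283 and 234 in MLL4 KO, 287 and 292 in control and 93.6 and 131 in BAP1 KO. It fell by 1.00 ± 0.18 (adjusted p = 0.0192), with -0.63 in MLL4 KO and -1.36 in BAP1 KO, sizes whose difference did not pass (adjusted p = 0.061). For RRS1, NOL6 and MYC all knockout libraries lay below all unedited ones. WDR12 (-0.62 ± 0.10, adjusted p = 0.0172) and PPAN (-0.63 ± 0.10, adjusted p = 0.0141), both needed for the large subunit, also fell, and PPAN shares reads with the readthrough gene PPAN-P2RY11.

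Of members chosen after their values were seen, the RNA helicase DDX21 went from 340 and 520 CPM to 264 and 234 and from 399 and 402 to 178 and 224 (log2 change -0.89 ± 0.16, adjusted p = 0.0178). The nucleolar protein LYAR changed by -0.94 ± 0.17 (adjusted p = 0.0189), spermidine synthase SRM by -0.94 ± 0.16 (adjusted p = 0.0178), GNL3 by -0.82 ± 0.14 (adjusted p = 0.0178), MYBBP1A by -0.85 ± 0.15 (adjusted p = 0.0189) and POLR1B, a subunit of RNA polymerase I, by -0.58 ± 0.12 (adjusted p = 0.0283). RRS1 alone of the 11 genes named kept its call without each library. The other 10 lost it without control replicate 1 and without control replicate 2, 7 of them without BAP1 KO replicate 1, 8 without BAP1 KO replicate 2, and POLR1B also without either MLL4 KO library (adjusted p between 0.0509 and 0.0897). Without control replicate 1 or 2 only 1 of the 48 members passed, while the list's median stayed at -0.61 and -0.62. The number passing was 3 without BAP1 KO replicate 2, 4 without BAP1 KO replicate 1, 16 and 15 without MLL4 KO replicates 1 and 2, 23 without WT replicate 2 and 33 without WT replicate 1. Of the 77 cytosolic ribosomal proteins 0 passed the common effect, though 58 common changes lay below 0. In MLL4 KO 4 passed higher and 0 lower (median 0.19), beside 9.13% and 10% of all genes. In BAP1 KO 0 passed higher and 31 lower (median -0.38), beside 12.1% and 10.4%, so there they fell in part too.

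MYC with its partner MAX binds the E-box, and the promoters of 3 fallen members that hold it are shown because they carry that letter sequence close to the start. They are the 250 bases before the annotated start from the RefSeq promoter table (GRCh38.p14), 5′ to 3′ on the gene's strand. Capitals mark the E-box CACGTG, which reads the same on both strands, and in SRM also the CCAAT box on either strand (CCAAT or ATTGG).
LYAR, chr4:4290022-4290271, minus strand: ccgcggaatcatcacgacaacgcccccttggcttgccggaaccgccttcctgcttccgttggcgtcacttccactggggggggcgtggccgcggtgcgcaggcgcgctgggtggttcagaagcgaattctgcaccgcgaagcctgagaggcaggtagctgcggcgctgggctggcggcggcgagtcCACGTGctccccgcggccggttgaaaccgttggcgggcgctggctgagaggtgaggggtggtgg
DDX21, chr10:68956397-68956646, plus strand: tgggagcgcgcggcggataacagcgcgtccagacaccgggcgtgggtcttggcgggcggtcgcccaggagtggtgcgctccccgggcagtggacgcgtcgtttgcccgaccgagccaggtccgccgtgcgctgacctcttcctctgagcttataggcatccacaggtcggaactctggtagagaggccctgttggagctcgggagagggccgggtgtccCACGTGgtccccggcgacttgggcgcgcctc
SRM, chr1:11060019-11060268, minus strand: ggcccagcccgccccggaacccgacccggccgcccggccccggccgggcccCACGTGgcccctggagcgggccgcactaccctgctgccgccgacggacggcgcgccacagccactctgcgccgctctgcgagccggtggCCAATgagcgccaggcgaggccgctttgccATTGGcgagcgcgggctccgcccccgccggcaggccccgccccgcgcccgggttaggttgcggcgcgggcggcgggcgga
The E-box begins 64 bases before the start of LYAR, 31 before that of DDX21 and 199 before that of SRM. In the 250 bases before the start, 6.34% of all 35116 promoters in the table and 8.02% of those of tested genes held it. It stood in 10.4% of the 791 promoters of fallen genes, 5.32% of the 958 of risen genes and 14.6% of 48 promoters of 38 list members. The 7 list members with a match there are the 3 shown and UTP4, UTP20, NAT10 and ODC1, which did not pass. With the 50 bases after the start included, 19 of the 38 list members held it (39.6% of their promoters), beside 9.04% of the promoters of tested genes, 14.9% of those of fallen genes and 5.95% of those of risen genes. The motif was chosen after the values were seen, a match is no evidence of binding, and promoters of a gene are counted each.

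Part of the interferon response genes rose in the common effect. These genes are switched on by factors such as STAT2 and IRF9 after interferon binds its receptor, and many restrict viruses. Of 47 tested members 15 rose (31.9%, beside 4.68% of all genes), 1 fell (2.13%, beside 4.13%) and 31 passed in neither direction. The list's median was 0.59 on the log2 scale. The set medians were 0.39 in MLL4 KO, where 13 members passed higher and 3 lower, and 0.88 in BAP1 KO, where 23 passed higher and 2 lower. The sizes differed between the sets for 14 members. IRF9 stood at 8.57 and 7.34 CPM in WT cells, 14.1 and 19.9 in MLL4 KO, 34.5 and 30.3 in control and 71.2 and 72.6 in BAP1 KO, a common log2 change of 1.13 ± 0.13 (adjusted p = 0.00774) of like size in each set (1.09 and 1.15). The groups did not overlap within a set, while both MLL4 KO libraries lay below both control libraries.

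IRF7, the transcription factor that amplifies interferon production, rose by 1.34 ± 0.19 (adjusted p = 0.0114), from 8.10 and 5.12 CPM to 15.6 and 21.9 and from 14.8 and 17.0 to 34.0 and 38.2. IFI6, an inhibitor of viral replication at the endoplasmic reticulum, went from 7.64 and 3.22 CPM to 15.0 and 15.8 and from 21.0 and 18.0 to 155 and 184 (2.37 ± 0.38, adjusted p = 0.0163). Its rise was larger in BAP1 KO, and that difference passed (adjusted p = 0.0375). OAS1, a sensor of double-stranded RNA, rose by 2.61 ± 0.46 (adjusted p = 0.0163) from low levels of at most 1.03 CPM in unedited cells, and WT replicate 2 had no read; in MLL4 KO alone it did not pass (adjusted p = 0.187). BST2, which tethers budding viruses and was chosen after its values were seen, changed by 2.05 ± 0.47 (adjusted p = 0.0366), from 1.01 and 0.0625 CPM to 1.37 and 1.11 and from 8.50 and 7.54 to 24.4 and 55.0. In MLL4 KO alone BST2 did not pass (adjusted p = 0.342), and WT replicate 2 had 2 reads. PLSCR1, a membrane phospholipid scramblase, was the member that fell (-0.67 ± 0.15, adjusted p = 0.033). IRF9 kept its call without each library. IFI6 lost it without either control library, IRF7 without control replicate 1, and OAS1 without either control library or BAP1 KO replicate 2. PLSCR1 and BST2 lost it without 6 and 7 of the libraries, all but WT replicate 1 and, for PLSCR1, MLL4 KO replicate 2 (adjusted p of lost calls between 0.0505 and 0.139). Over the whole list 1 member rose without control replicate 1 and 2 without control replicate 2, with medians of 0.55 and 0.54. The number was 6 and 4 without BAP1 KO replicates 1 and 2, and 7 without MLL4 KO replicate 1.

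Presentation of peptides on MHC class I, which interferon also raises, rose in part too. Of 21 members 9 rose (42.9%, beside 4.68% of all genes) and 0 fell, with a median of 0.54 (0.56 in MLL4 KO, 0.51 in BAP1 KO). PSMB9, a catalytic subunit of the immunoproteasome, rose by 2.04 ± 0.22 (adjusted p = 0.00695), from 3.61 and 2.00 CPM to 10.4 and 10.7 and from 4.74 and 3.82 to 15.0 and 22.8, with every knockout library above every unedited one. HLA-F rose by 1.07 ± 0.12 (adjusted p = 0.00695), from 9.97 and 9.78 CPM to 21.7 and 25.1 and from 22.5 and 22.4 to 40.2 and 43.8, with no overlap within a set, and reads of HLA genes can be split among near-identical copies. The proteasome activators PSME1 (1.02 ± 0.15, adjusted p = 0.0126) and PSME2 (0.61 ± 0.11, adjusted p = 0.0189) rose by like amounts in each set. B2M, the light chain of all class I molecules, changed by 0.57 ± 0.13 (adjusted p = 0.0333) and TAPBPL, a peptide editor that overlaps VAMP1 and CD27, by 1.63 ± 0.33 (adjusted p = 0.0262), both chosen after their values were seen. PSMB9 and HLA-F kept the call without each library. PSME1 lost it without either control library, PSME2 without any of the control and BAP1 KO libraries, and B2M and TAPBPL also without WT replicate 2 or MLL4 KO replicate 2, and B2M without MLL4 KO replicate 1 (adjusted p between 0.0514 and 0.102). Of the 21 members 2 rose without either control library and 3 without either BAP1 KO library.

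The promoters of 3 risen members are shown because they hold the sequences that interferon-activated factors bind. They come from the same RefSeq table and are written in the same way, with 250 bases before the start. Capitals mark the interferon-stimulated response element (searched on both strands as GAAA, any 2 bases and GAAA), the interferon gamma activated site (TTCNNNGAA), the E-box (CACGTG), the E2F motif (TTCCCGC) and the CCAAT box (ATTGG on the reverse strand).
IRF9, chr14:24161015-24161264, plus strand: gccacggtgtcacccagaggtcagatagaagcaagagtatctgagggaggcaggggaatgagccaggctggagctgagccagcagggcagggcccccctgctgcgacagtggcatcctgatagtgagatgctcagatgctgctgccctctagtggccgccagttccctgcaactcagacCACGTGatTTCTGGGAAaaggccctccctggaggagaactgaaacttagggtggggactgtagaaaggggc
IFI6, chr1:27672193-27672442, minus strand: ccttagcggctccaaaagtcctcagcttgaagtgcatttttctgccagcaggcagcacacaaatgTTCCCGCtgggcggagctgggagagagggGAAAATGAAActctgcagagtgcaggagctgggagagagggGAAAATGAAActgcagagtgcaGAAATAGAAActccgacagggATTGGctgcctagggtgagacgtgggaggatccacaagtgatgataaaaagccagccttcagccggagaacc
BST2, chr19:17405631-17405880, minus strand: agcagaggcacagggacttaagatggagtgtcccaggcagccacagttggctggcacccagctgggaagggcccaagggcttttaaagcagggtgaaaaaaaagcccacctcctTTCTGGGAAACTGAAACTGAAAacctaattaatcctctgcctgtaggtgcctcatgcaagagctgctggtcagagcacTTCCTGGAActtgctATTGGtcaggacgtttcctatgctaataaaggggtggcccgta
IFI6 holds 3 response elements, starting 156, 115 and 93 bases before the start. BST2 holds 2 that overlap each other and an activated site, and a second activated site 58 bases before the start. The activated site of IRF9 lies 63 bases before its start. In the 250 bases before the start the response element stood in 3.02% of all promoters in the table, 2.45% of those of tested genes, 3.13% of those of risen genes and 2.40% of those of fallen genes. It stood in 56.4% of 55 promoters of 42 interferon list members and 33.3% of 24 promoters of 17 class I members, lists that were chosen by the known function of these genes. For the activated site the shares were 6.57% of all promoters, 5.37% of those of tested genes, 5.32% of risen and 5.56% of fallen genes. In the interferon and class I lists they were 23.6% and 8.33%. The promoters shown come from members that hold the motif.

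**Figure D4:**
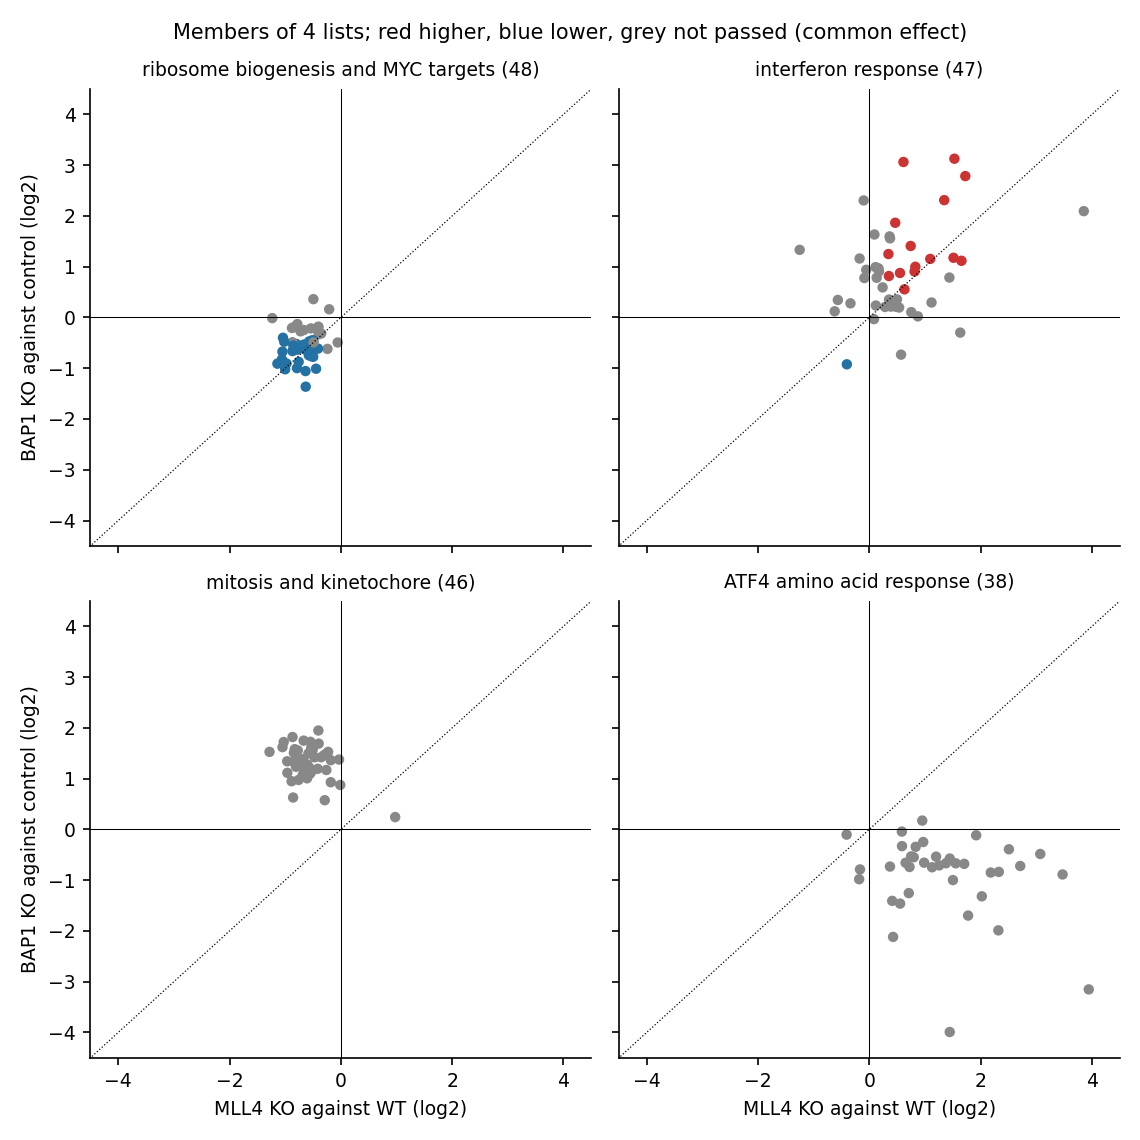
Members of 4 gene lists placed by their log2 change in MLL4 KO against WT (x axis) and BAP1 KO against control (y axis); red rose, blue fell and grey did not pass in the common effect. Ribosome biogenesis members lie below 0 on both axes with few exceptions and 31 of 48 are blue, 15 of 47 interferon members are red, and the mitosis and amino acid response members lie mostly in the quadrants of opposite sign with 0 passing.

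Receptor pathways moved in part. TGF-beta and BMP signalling runs from receptor kinases through SMAD proteins to targets such as the ID genes. Of 28 members 5 rose (ID2, ID3, TGFB1, PMEPA1 and ATOH8; 17.9%, beside 4.68% of all genes) and 1 fell (LTBP1; 3.57%, near the 4.13% of all genes), with a median of 0.34 (0.60 in MLL4 KO and 0.01 in BAP1 KO). ID3, an inhibitor of helix-loop-helix factors, stood at 88.3 and 48.2 CPM in WT cells, 316 and 224 in MLL4 KO, 22.8 and 22.5 in control and 66.2 and 79.2 in BAP1 KO, a common change of 1.84 ± 0.21 (adjusted p = 0.00709). Its groups did not overlap within a set, though the BAP1 KO libraries lay below WT replicate 1. PMEPA1, a feedback inhibitor of the pathway, rose by 2.40 ± 0.27 (adjusted p = 0.00709), from 0.388 and 0.312 CPM to 1.23 and 1.45 and from 0.548 and 0.667 to 4.43 and 3.49. ID2 rose by 1.26 ± 0.24 (adjusted p = 0.0215) and ATOH8, at most 3.00 CPM in any library, by 1.96 ± 0.44 (adjusted p = 0.0312). LTBP1, which binds latent TGF-beta in the matrix, changed by -0.64 in MLL4 KO and -2.11 in BAP1 KO, sizes that differed (adjusted p = 0.0301). The number risen was 2 without either control library, MLL4 KO replicate 1 or BAP1 KO replicate 1, and 3 without BAP1 KO replicate 2. ID3 and PMEPA1 kept the call without each library. ID2 lost it without either control library, MLL4 KO replicate 1 or BAP1 KO replicate 1, and ATOH8 and LTBP1 also without WT replicate 2 or BAP1 KO replicate 2 (adjusted p between 0.0528 and 0.119).

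Among genes of MAPK feedback and the immediate early response, which dampen or follow ERK signalling, 7 of 40 rose (17.5%) and 1 (MYC) fell (2.5%), beside 4.68% and 4.13% of all genes. The list's median was 0.03 and ran from 0.01 to 0.32 over the alternatives. Only 1 rose without either control library or BAP1 KO replicate 2, 3 without BAP1 KO replicate 1, 4 without MLL4 KO replicate 1 and 10 without WT replicate 2. SPRED2, an inhibitor of RAS and RAF, rose by 0.75 ± 0.09 (adjusted p = 0.00709) from 79.8 and 72.7 CPM to 132 and 134 and from 76.5 and 79.6 to 129 and 124, with no overlap of the 4 against 4. DUSP6, the ERK phosphatase, rose by 1.76 ± 0.33 (adjusted p = 0.021), from 144 and 47.5 CPM to 316 and 476 and from 221 and 221 to 658 and 574. SPRED3 rose by 1.23 ± 0.23 (adjusted p = 0.0206), EGR2 by 2.08 ± 0.41 (adjusted p = 0.0235) and EGR3 by 2.25 ± 0.39 (adjusted p = 0.0178), the latter more in MLL4 KO (3.17) than in BAP1 KO (1.51; adjusted p of the difference 0.0466). SPRED2 kept its call without each library. DUSP6, SPRED3, EGR2 and EGR3 lost it without either control library or BAP1 KO replicate 2, DUSP6 and SPRED3 without BAP1 KO replicate 1 and EGR2 without MLL4 KO replicate 1 (adjusted p between 0.0523 and 0.0828).

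WNT targets and regulators went both ways, with 3 of 26 higher (NKD1, TNFRSF19 and WNT11) and 3 lower (DACT1, WNT3 and WNT10B), 11.5% each way beside 4.68% and 4.13% of all genes. Without either control library 0 rose and 1 fell, and without either BAP1 KO library or MLL4 KO replicate 1 the counts were 1 and 2. HCT116 carries an activating mutation of beta-catenin. NKD1, a feedback inhibitor, rose by 0.91 ± 0.12 (adjusted p = 0.0106), from 19.3 and 25.4 CPM to 44.5 and 41.3 and from 12.8 and 12.6 to 24.9 and 21.5. The ligand WNT10B fell by 0.92 ± 0.13 (adjusted p = 0.0117), from 13.8 and 13.9 CPM to 7.4 and 7.77 and from 8.46 and 7.51 to 4.05 and 4.02, and WNT11 rose by 1.51 ± 0.38 (adjusted p = 0.0469). NKD1 and WNT10B lost the call without either control library, and WNT11 without 7 of the libraries, all but MLL4 KO replicate 2 (adjusted p between 0.0523 and 0.107). Of 24 Notch members 2 rose (DLL4 and HES1; 8.33%) and 1 fell (HES6; 4.17%, the share of all genes being 4.13%). Of 24 YAP and TEAD targets 3 rose (PTPN14, ARHGEF17 and MYOF; 12.5%) and 2 fell (FJX1 and NUAK2; 8.33%). In both lists 0 rose without any one of the control and BAP1 KO libraries, and in the YAP list also without MLL4 KO replicate 2.

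Transcription factors of development, many of them kept silent by Polycomb in differentiated cells, gave 8 of 58 higher (13.8%) and 2 lower (3.45%), beside 4.68% and 4.13% of all genes, with a median of 0.29. Only 1 rose without either control library or BAP1 KO replicate 2, 3 without BAP1 KO replicate 1 and 5 without MLL4 KO replicate 2. FOXC1, a forkhead factor of mesenchymal and neural crest lineages (chr6:1609915-1613897), stood at 85.3 and 45.1 CPM in WT cells, 178 and 231 in MLL4 KO, 92.2 and 96.7 in control and 334 and 322 in BAP1 KO. It rose by 1.73 ± 0.19 (adjusted p = 0.00709) and kept its call without each library, and all knockout libraries lay above all unedited ones. IRX3 (1.34 ± 0.23, adjusted p = 0.0174), ZIC2 (1.05 ± 0.18, adjusted p = 0.0177) and MSX1 (1.04 ± 0.19, adjusted p = 0.0192), homeobox and zinc finger factors of patterning, also rose. MEF2C, a factor of muscle and neurons that shares its locus with MEF2C-AS2, fell by 1.93 ± 0.28 (adjusted p = 0.0135), from 17.9 and 22.1 CPM to 2.96 and 4.25 and from 7.79 and 5.44 to 2.65 and 2.74. PITX1, a hindlimb factor that shares its locus with PITX1-AS1, fell by 0.71 ± 0.15 (adjusted p = 0.0268). All 5 lost the call without control replicate 1 and all but MEF2C without control replicate 2. IRX3, ZIC2, MSX1 and PITX1 lost it without BAP1 KO replicate 2, MSX1 and PITX1 without BAP1 KO replicate 1, and PITX1 without WT replicate 2 or MLL4 KO replicate 2 (adjusted p between 0.0535 and 0.0897).

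Neural adhesion and synaptic genes had the highest median of the 35 lists, 0.67, though the set medians were lower, 0.56 in MLL4 KO and 0.31 in BAP1 KO. Of 34 tested members 7 rose (20.6%, beside 4.68% of all genes) and 1 fell (LRFN1; 2.94%, beside 4.13%). Only 1 rose without any one of the control and BAP1 KO libraries and 3 without MLL4 KO replicate 2. Besides GRIK2 above, TMEM132B rose by 2.48 ± 0.50 (adjusted p = 0.0268), from 1.55 and 0.188 CPM to 12 and 10.3 and from 4.23 and 4.95 to 13.9 and 14.6, and by more in MLL4 KO (3.79) than in BAP1 KO (1.63; adjusted p of the difference 0.0468). CNTNAP3, a neurexin-like adhesion protein, changed by 2.03 ± 0.36 (adjusted p = 0.0189), and its reads cannot be told from those of its near-identical copy CNTNAP3B. Both lost the call without any control or BAP1 KO library, and TMEM132B without WT replicate 1 or MLL4 KO replicate 1 (adjusted p between 0.0519 and 0.0799). Of 56 genes on this list only 34 had counts enough to be tested, so the count covers those that did. The filter needs enough counts in 1 group only. A gene near silent in unedited cells, such as GRIK2, can thus enter through a knockout group. The median and the share risen depend on this.

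Of 28 integrins and adhesion receptors 7 rose (25%, beside 4.68% of all genes) and 1 fell (3.57%, beside 4.13%). Only 1 rose without either control library, 2 without either BAP1 KO library and 4 without MLL4 KO replicate 1. ITGA2, the collagen-binding integrin alpha 2, stood at 58.6 and 41.7 CPM in WT cells, 122 and 128 in MLL4 KO, 104 and 107 in control and 214 and 225 in BAP1 KO. It rose by 1.19 ± 0.13 (adjusted p = 0.00673), kept the call without each library, and all knockout libraries lay above all unedited ones. CADM4 (0.73 ± 0.10, adjusted p = 0.0106) and L1CAM (1.05 ± 0.19, adjusted p = 0.0189), adhesion molecules of the immunoglobulin family, rose, and ITGB5 fell by 0.58 ± 0.15 (adjusted p = 0.0499). CADM4 and L1CAM lost the call without either control library, L1CAM also without either BAP1 KO library, and ITGB5 without all but MLL4 KO replicate 2 (adjusted p between 0.0535 and 0.138).

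Of 41 epithelial junction genes 4 fell (among them DSC2, PKP2 and EPCAM; 9.76%, beside 4.13% of all genes) and 1 rose (PRKCZ; 2.44%, beside 4.68%). The median was -0.24 (0.04 in MLL4 KO and -0.45 in BAP1 KO) and ran from -0.32 to -0.05 over the alternatives. The number fallen was 0 without control replicate 1, 1 without control replicate 2 or BAP1 KO replicate 2, and 2 without BAP1 KO replicate 1 or MLL4 KO replicate 1. EPCAM, the epithelial adhesion molecule, stood at 214 and 282 CPM in WT cells, 109 and 119 in MLL4 KO, 389 and 413 in control and 123 and 196 in BAP1 KO, and fell by 1.23 ± 0.17 (adjusted p = 0.0106). DSC2, a desmosomal cadherin, fell from 76.5 and 89.6 CPM to 23.3 and 43.0 and from 69.4 and 70.1 to 9.38 and 11.1 (-2.03 ± 0.32, adjusted p = 0.0163), by more in BAP1 KO (adjusted p of the difference 0.0307). For EPCAM and DSC2 all knockout libraries lay below all unedited ones. PKP2, a desmosomal plaque protein (-0.52 ± 0.12, adjusted p = 0.0414) and ELF3, an epithelial ETS factor chosen after its values were seen (-1.65 ± 0.39, adjusted p = 0.0406), also fell. In MLL4 KO alone ELF3 did not pass (adjusted p = 0.165). Among 18 keratins KRT20 and KRT23 rose (11.1%), and KRT15, a basal keratin and the 1 that fell (5.56%), changed by -1.49 ± 0.20 (adjusted p = 0.0105), from 13.7 and 12.8 CPM to 3.23 and 3.46 and from 36.2 and 40.2 to 17.5 and 19.3. KRT15 kept its call without each library. EPCAM lost it without control replicate 1, DSC2 without either control library or BAP1 KO replicate 2, ELF3 also without BAP1 KO replicate 1, MLL4 KO replicate 1 or WT replicate 1, and PKP2 without all but MLL4 KO replicate 2 (adjusted p between 0.0533 and 0.117). The summed epithelial markers, which include EPCAM and ELF3, were higher in MLL4 KO than in WT and lower in BAP1 KO than in control. The higher MLL4 KO sum came mainly from KRT8 (1783 and 1758 to 3015 and 2893 CPM) and KRT18 (707 and 672 to 1327 and 1454). EPCAM, ELF3 and KRT19 were lower there. Of the 9 markers tested, 2 passed higher and 1 lower in MLL4 KO, with a median log2 change of -0.06. In BAP1 KO 0 passed higher and 7 lower, with a median of -1.11. The part of these markers in the changes above was not tested.

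Some programmes changed in opposite directions in the knockouts, and few or none of their members passed the common effect. Of 46 genes of mitosis and the kinetochore 26 passed lower and 1 higher in MLL4 KO and 44 passed higher in BAP1 KO, with set medians of -0.57 and 1.38. In the common effect 0 passed, with a median of 0.34 that lay between -0.06 and 0.65 over the alternatives, and for 45 the sizes differed between the sets. The changes did not cancel in full, since 45 of the 46 common changes lay above 0. Of 45 genes of DNA replication 26 passed lower in MLL4 KO and 38 higher in BAP1 KO, with 0 in the common effect. The average of the set changes in the fit with a mean per group does not count the gap between the sets as spread. It passed for 19 mitosis genes, all higher, and for 7 replication genes higher and 1 lower. Over all 16831 genes tested, that average passed for 2185 higher and 2005 lower. MKI67, the proliferation marker, chosen after its values were seen, stood at 959 and 1056 CPM in WT cells, 737 and 642 in MLL4 KO, 119 and 113 in control and 452 and 316 in BAP1 KO, with an adjusted p of 0.425 in the common effect and 0.00876 in that average. MCM2, a subunit of the replicative helicase and likewise chosen, stood at 306 and 306, 268 and 172, 69.9 and 72.3, and 132 and 125 CPM in the same order. In MLL4 KO against WT neither gene passed (adjusted p = 0.0504 for MKI67 and 0.0903 for MCM2). Both were lower in control than in any other group, so the unedited lines of the sets also differed in these genes.

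The response to amino acid shortage through the transcription factor ATF4 ran the opposite way. Of 38 members 24 passed higher in MLL4 KO and 14 lower in BAP1 KO, with set medians of 1.16 and -0.72, 0 common calls and different sizes for 32. The average of the set changes passed for 7 members higher and 3 lower, beside 2185 and 2005 of all 16831 genes tested. DDIT3, the stress factor CHOP, stood at 10.5 and 18.6 CPM in WT cells, 90.9 and 155 in MLL4 KO, 142 and 138 in control and 72.0 and 128 in BAP1 KO, with an adjusted p of 0.318 in the common effect and 0.0169 in that average. ASNS, asparagine synthetase, stood at 95.5 and 67.8, 221 and 441, 666 and 654, and 191 and 339 CPM. Both genes were chosen after their values were seen, and neither passed in BAP1 KO against control (adjusted p = 0.402 for DDIT3 and 0.0513 for ASNS). In both genes the control libraries lay far above the WT libraries. Heat shock chaperones changed mainly in MLL4 KO, where 17 of 31 passed lower and 1 higher, while in BAP1 KO 2 passed each way. Only 1 passed in opposite directions, and 27 of the 31 common changes lay below 0. Of 28 cholesterol genes 10 passed lower and 2 higher in MLL4 KO, and 10 higher and 0 lower in BAP1 KO. In this list 5 genes passed in opposite directions. Over all genes 9.13% passed higher and 10% lower in MLL4 KO, and 12.1% and 10.4% in BAP1 KO. In the common effect 0 chaperones and 2 cholesterol genes (TM7SF2 and ABCG1, both higher; 7.14%, beside 4.68% of all genes) passed.

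**Figure D5:**
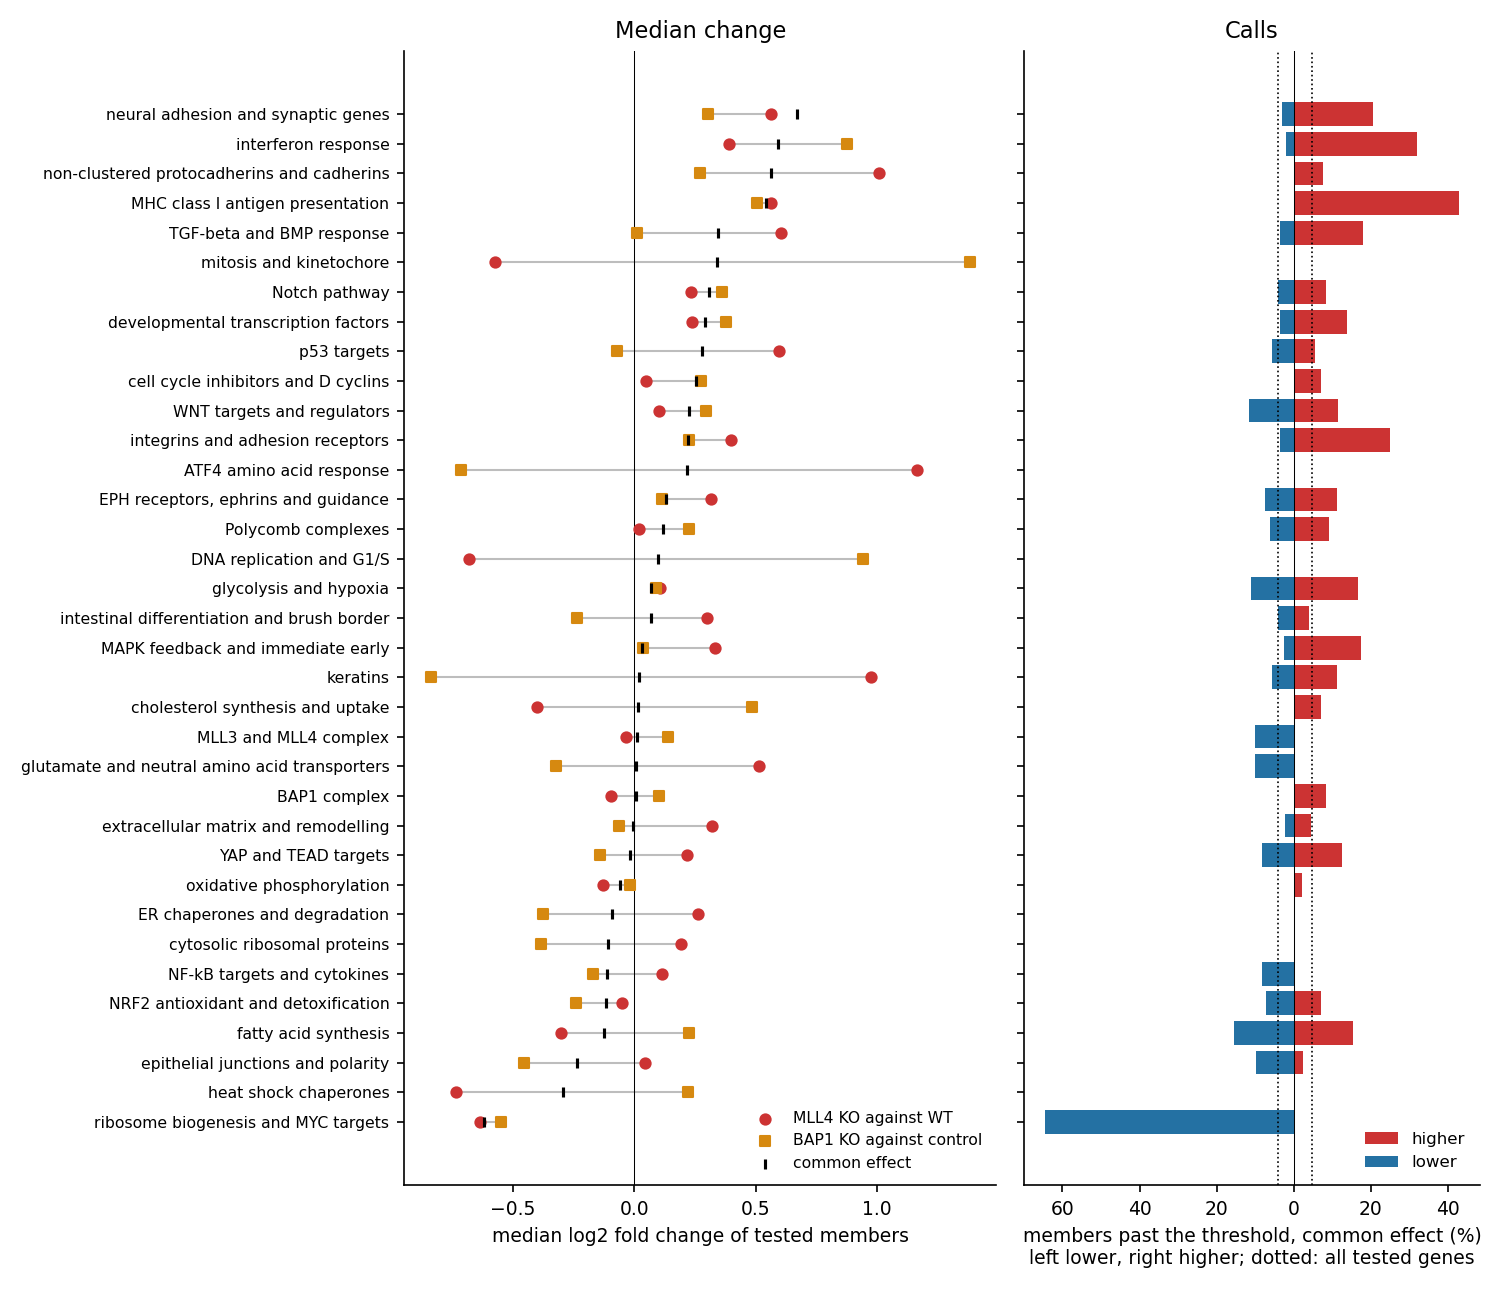
Left, the median log2 change of the tested members of 35 gene lists in MLL4 KO against WT (circles), BAP1 KO against control (squares) and the common effect (ticks); right, the percent of members that rose (red) or fell (blue) in the common effect, with dotted lines at 4.68% and 4.13% for all genes tested. Ribosome biogenesis stands lowest at -0.62 with its set medians side by side, and mitosis, DNA replication and the amino acid response span 0.

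Opposite change was found in single genes too. DYSF, the membrane repair protein dysferlin, passed higher in MLL4 KO (2.52 ± 0.38) and lower in BAP1 KO (-2.47 ± 0.28), with 1.24 and 0.562 CPM in WT cells, 3.87 and 6.29 in MLL4 KO, 23.2 and 19.9 in control and 3.83 and 3.92 in BAP1 KO. ARRDC4, an arrestin-like protein induced by glucose, stood at 11.2 and 7.38 CPM in WT cells, 33.8 and 33.7 in MLL4 KO, 232 and 225 in control and 43.2 and 46.4 in BAP1 KO. NUPR1, a stress-induced nuclear protein, changed by 3.94 and -3.15. PKIB, an inhibitor of protein kinase A, went the other way, from 18.6 and 16.7 CPM to 5.21 and 5.03 in the MLL4 KO set and from 35.8 and 31.1 to 196 and 330 in the BAP1 KO set. KRT35 changed by -3.97 and 2.59 at no more than 1.28 CPM, and AOPEP, which overlaps FANCC, by -1.69 and 2.07. None of these 6 genes passed the common effect (adjusted p from 0.412 to 0.972).

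A common call did not always mean equal sizes. The difference between the sets passed for 76 of the 787 risen and 47 of the 695 fallen genes, beside 2704 of all genes tested (16.1%). BAP1 KO had the larger change in 72 and 43 of these. NGFR, the low-affinity nerve growth factor receptor, which shares its locus with NGFR-AS1, rose from 16.3 and 11.4 CPM to 39.2 and 44.5 in the MLL4 KO set and from 3.45 and 2.82 to 54.0 and 54.2 in the BAP1 KO set, log2 changes of 1.60 and 4.12 (adjusted p of the difference 0.00109). The knockout levels lay close together while the unedited levels did not. AGPAT5, an acyltransferase of phospholipid synthesis, rose by 1.05 and 2.85, FSD1 by 0.83 and 3.05, and GPR162 by 0.95 and 3.22. CRYBG1, which overlaps RTN4IP1, changed by -0.94 and -3.74 and TMC5 by -0.71 and -3.09. In each of the 6 the knockout libraries did not overlap the unedited ones. All 6 lost the common call without control replicate 1, control replicate 2 or BAP1 KO replicate 2, and all but NGFR without BAP1 KO replicate 1. FSD1 and TMC5 lost it without WT replicate 2, FSD1, CRYBG1 and TMC5 without MLL4 KO replicate 1, and CRYBG1 and TMC5 without MLL4 KO replicate 2 (adjusted p between 0.0535 and 0.14).

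Genes of the complexes around the targeted proteins passed the common effect in small numbers. Of 10 members of the MLL3 and MLL4 complex only WDR5, its core scaffold, passed (10%, beside 4.13% of all genes lower). It was lower by 0.54 ± 0.13 (adjusted p = 0.0446). Of 12 of the BAP1 complex only MBD5, which overlaps ORC4, passed (8.33%, beside 4.68% of all genes higher). It was higher by 0.55 ± 0.14 (adjusted p = 0.0458). Both lost the call without any one of the 8 libraries (adjusted p between 0.051 and 0.138). Of 33 Polycomb genes 3 passed higher and 5 lower in MLL4 KO, beside 9.13% and 10% of all genes. In BAP1 KO 8 passed higher and 2 lower, beside 12.1% and 10.4%. The sizes differed between the sets for 8. In the common effect 3 rose (CBX7, PCGF2 and PHF1, 9.09%) and 2 fell (BMI1 and PCGF6, 6.06%), beside 4.68% and 4.13% of all genes. Without any one of the control and BAP1 KO libraries 1 rose and 0 fell. CBX7, a reader of the H3K27me3 mark, stood at 26.5 and 23.1 CPM in WT cells, 49.4 and 62.0 in MLL4 KO, 23.8 and 21.9 in control and 45.6 and 44.6 in BAP1 KO, and rose by 1.07 ± 0.11 (adjusted p = 0.00673) without overlap of the 4 against 4. BMI1, a RING partner of PRC1 that shares reads with COMMD3-BMI1, fell by 0.96 ± 0.15 (adjusted p = 0.0147), from 80.3 and 117 CPM to 60.6 and 59.8 and from 85.2 and 92.3 to 37.9 and 38.9. The related PCGF6 fell by 0.62 ± 0.11 (adjusted p = 0.0189) and PCGF2, which overlaps CISD3, rose by 0.50 ± 0.09 (adjusted p = 0.0178). CBX7 kept its call without each library, and BMI1, PCGF6 and PCGF2 lost it without any control or BAP1 KO library, PCGF6 also without MLL4 KO replicate 1 (adjusted p of lost calls between 0.0527 and 0.0799).

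Metabolic genes moved in both directions. Of 36 genes of glycolysis and hypoxia 6 rose (16.7%) and 4 fell (11.1%), beside 4.68% and 4.13% of all genes, with a median of 0.07. Without either control library 0 passed, without BAP1 KO replicate 1 or 2 only 1 rose, and without MLL4 KO replicate 1 the counts were 2 and 2. The glycolytic enzymes ENO2 (1.19 ± 0.18, adjusted p = 0.0142) and ALDOC (1.81 ± 0.36, adjusted p = 0.0256), PFKL (0.51 ± 0.11, adjusted p = 0.0347) and the glucose transporter SLC2A1 (1.13 ± 0.22, adjusted p = 0.0229) rose. ENO2 went from 58.7 and 52.6 CPM to 90.4 and 93.9 and from 45.6 and 47.1 to 143 and 147, and SLC2A1 from 192 and 210 to 372 and 267 and from 104 and 114 to 380 and 278. Both rose further in BAP1 KO (adjusted p of the difference 0.00654 and 0.0442). HK2, the hexokinase bound to mitochondria, chosen after its values were seen, fell by 1.24 ± 0.25 (adjusted p = 0.0268), from 85.9 and 102 CPM to 66.5 and 46.3 and from 101 and 95.8 to 22.5 and 36.4. The hypoxia targets ADM (-1.12 ± 0.19, adjusted p = 0.0173) and ERO1A (-0.45 ± 0.09, adjusted p = 0.0227) also fell. Of 28 NRF2 targets NQO1 rose by 1.01 ± 0.13 (adjusted p = 0.00917), from 264 and 196 CPM to 511 and 479 and from 315 and 295 to 541 and 613, and the exporter ABCC2 by 1.33 ± 0.29 (adjusted p = 0.0316), while TXNRD1, which overlaps EID3 (-1.05 ± 0.23, adjusted p = 0.0331), and ME1 (-0.88 ± 0.16, adjusted p = 0.0194) fell. So 2 targets (7.14%) moved each way. For HK2, ENO2, SLC2A1 and NQO1 the 4 knockout libraries did not overlap the 4 unedited ones.

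None of these 11 metabolic genes kept the call without each library. NQO1 lost it without control replicate 2 and ENO2 without either control library. ADM and ME1 lost it without either control library or BAP1 KO replicate 2, and SLC2A1, ALDOC, PFKL, ERO1A, HK2, ABCC2 and TXNRD1 also without BAP1 KO replicate 1. ALDOC, HK2, ABCC2 and TXNRD1 lost it without WT replicate 2, SLC2A1, PFKL, ERO1A, ABCC2 and TXNRD1 without MLL4 KO replicate 1, and PFKL and HK2 without MLL4 KO replicate 2 (adjusted p of lost calls between 0.0502 and 0.104). Of 46 oxidative phosphorylation genes only SDHC passed, higher, and of 25 chaperones of the endoplasmic reticulum 0 passed.

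In the common effect, cell cycle inhibitors and p53 targets passed at shares near those of all genes, 4.68% higher and 4.13% lower. The sets differed more. Of 14 cycle inhibitors and D cyclins 5 passed higher and 2 lower in MLL4 KO, and 6 higher and 1 lower in BAP1 KO. CDKN1B, the inhibitor p27 of cyclin-dependent kinases, was the only 1 of 14 cycle inhibitors and D cyclins to pass (7.14%), rising by 0.85 ± 0.15 (adjusted p = 0.0189) from 33.0 and 26.3 CPM to 72.8 and 59.5 and from 47.7 and 44.5 to 67.2 and 67.8. Its 4 knockout libraries lay above the 4 unedited ones, also in the BAP1 KO set, where mitosis genes passed higher. Of 36 p53 targets 14 passed higher and 2 lower in MLL4 KO (median 0.59), beside 9.13% and 10% of all genes. In BAP1 KO 1 passed higher and 6 lower (median -0.07), beside 12.1% and 10.4%, and the sizes differed for 10. In the common effect 2 p53 targets rose (CCNG1 and CMBL) and 2 fell (TIGAR and TRIAP1), 5.56% each way. TIGAR, a regulator of glycolysis, fell by 0.64 ± 0.11 (adjusted p = 0.0168) and CMBL rose by 0.47 ± 0.11 (adjusted p = 0.0386). CDKN1B lost its call without either control library or BAP1 KO replicate 2, TIGAR also without BAP1 KO replicate 1, and CMBL without any one of the 8 libraries (adjusted p between 0.0535 and 0.105).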

How the data were processed

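Polyadenylated RNA of 8 libraries was sequenced with a kit that does not mark strand, per the labels' protocols, so overlapping and antisense genes share reads. The submitters' processing notes name bcl2fastq, STAR, Bowtie2, SICER 1.1 and the hg38 build for the series, without saying which tool served which assay. The deposited tables, 1 per library, give for each of 88819 transcript rows a read count made by the authors, the unit analysed here, and an RPKM value, also deposited, that was not used. The sources used here do not say how reads were assigned to rows.

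Rows were joined to gene symbols, 605 rows without a symbol (0.23% to 0.252% of counts) were left out, and the row with the highest mean count stood for each of 28105 genes. edgeR 4.0.16 (R 4.3.3) filtered low counts by group (filterByExpr, 16831 genes left), scaled by TMM and fitted the quasi-likelihood model with a robust step, with set as block and knockout against unedited as the tested term. A fit with a mean per group gave each set's change and the difference between sets. P-values were adjusted by Benjamini-Hochberg over all tested genes, with a threshold of 0.05. CPM are scaled by TMM, and ± is the standard error of a log2 change over 4 against 4 libraries, or 2 against 2 within a set. The difference between WT and control cells is taken up by the set block. DESeq2 1.42.0 and limma 3.58.1 served as alternatives, and the code was tested on simulated counts. Python 3.11.15 with pandas 2.3.3 made the summaries.

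Named genes were, among common calls without overlap within either set and of at least 5 CPM, those with the largest common change and the largest smaller set change; the calls with the strongest difference between sets; those most opposite between sets; and up to 4 members of each list with the smallest p, plus up to 2 in the other direction. Some genes this rule names are not reported here. Others are said to be chosen after their values were seen. Members, lists and motifs were chosen with earlier results of these data known. A list is described by its counts beside the share of all genes, and by its median, with no test of its own.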

Additional observations from a re-analysis of the deposited data

Results flagged for a closer look

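The change differed between the sets, by a test of the difference itself in the fit with a mean per group (edgeR, adjusted p below 0.05), for 2704 of 16831 genes. The values that follow are the log2 change in MLL4 KO against WT minus that in BAP1 KO against control, each over 2 against 2 libraries. Among genes that fell in both sets, the drop was larger in BAP1 KO for SLC1A3 (2.06), MGLL (1.88), IRAG1 (1.83), ATP8B1 (0.797), GALNT5 (3.22), INAVA (2.73), LTBP1 (1.47), DSC2 (1.44), CRYBG1 (2.79) and TMC5 (2.38), and larger in MLL4 KO for KRT15 (-0.933). Among genes that rose in both, the rise was larger in BAP1 KO for SAMD5 (-1.30), IFI6 (-1.60), NGFR (-2.52), AGPAT5 (-1.80), FSD1 (-2.22), GPR162 (-2.27), ENO2 (-0.915) and SLC2A1 (-0.929), and larger in MLL4 KO for EGR3 (1.66) and TMEM132B (2.16).

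The sets moved in opposite directions for NUPR1 (7.09), DYSF (4.99) and ARRDC4 (4.22), all higher in MLL4 KO and lower in BAP1 KO, and for KRT35 (-6.57), PKIB (-4.76) and AOPEP (-3.76), which went the other way. Among members of the lists whose set changes ran in opposite directions, the values were MKI67 (-2.27), MCM2 (-1.33), DDIT3 (3.56) and ASNS (3.34). Of these, MKI67 and MCM2 did not pass in MLL4 KO against WT, and DDIT3 and ASNS did not pass in BAP1 KO against control. The unedited WT and control cells also stood at different levels for many of these genes, so a difference between the sets cannot be told apart from a difference between the lines they were made in.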

How the results depend on the processing

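The common effect gave 787 higher and 695 lower genes. DESeq2 gave 1451 and 1437, the average of both set changes in the fit with a mean per group 2185 and 2005, a test against a 1.5-fold change 26 and 12, and a fit without the set block 36 and 9. Leaving out 1 library gave 47 to 862 and 18 to 758. With a replicate block 2 genes were higher and 0 lower. The replicate numbers were not shown to pair libraries (correlation of deviations -0.143 in the WT and MLL4 KO set and 0.0058 in the other), so the block takes up degrees of freedom without a known pairing. Crossing the numbers, an alternative chosen after seeing the data, gave 119 and 89 genes (first set crossed) or 92 and 55 (both crossed). Other scalings, filters and dispersion settings and other ways to choose a row stayed within 1.5 times. Upper-quartile scaling gave 60.9% of MLL4 KO calls as higher, beside 47.7%, and 59.5% of the differences as positive, beside 48.2%.

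MLL4 KO calls numbered 3219, 792 with the replicate block, 65 from its 4 libraries alone and 530 to 5290 without 1 library. BAP1 KO calls numbered 3778, with 2481, 6626 and 1075 to 5015 in the same order. The difference between sets passed for 2704 genes, for 1352 with the replicate block and for 681 to 4426 without 1 library. The causes were not tested.

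Of 122 named results 121 kept their direction in all alternatives run. KMT2D, uncalled at 0.00, took the other sign at -0.0084 with RLE scaling and with DESeq2, -0.0096 without a filter, -0.0042 with a 1 CPM filter, -0.0061 with limma-voom, -0.0103 with the replicate block, -0.00096 with summed rows, -0.0104 with either crossing, -0.0043 without ribosomal RNA rows, and ran from -0.112 to 0.0974 without 1 library. Under scaling, filter, tool, dispersion and row alternatives 106 of 109 named common calls held. Fewer held elsewhere: 107 of 122 named genes lost the call with the replicate block, 94 of 112 without the set block and 83 of 112 in the test against a 1.5-fold change. Only 9 of 122 kept direction and call (or lack of one) in all alternatives run. With 2 libraries a group, small changes are poorly resolved.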

Other observations

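Rows of ribosomal RNA, which poly(A) selection should largely remove, also had negative common changes. The row RNA45SN5, named for the 45S precursor, spans those of RNA18SN5, RNA5-8SN5 and RNA28SN5, so these rows are not separate results. It held 133596 reads in WT replicate 1, beside 108435 in RNA28SN5, and does not tell precursor from mature RNA. RNA45SN5 stood at 5180 and 6305 CPM (WT), 4003 and 3866 (MLL4 KO), 11332 and 9413 in control and 6106 and 6564 in BAP1 KO. Its common log2 change was -0.63 ± 0.14 (adjusted p = 0.0312, edgeR). RNA28SN5 changed by -0.61 ± 0.13 (adjusted p = 0.0295) and RNA5-8SN5 by -1.58 ± 0.26 (adjusted p = 0.0171), while RNA18SN5 at -0.66 ± 0.22 did not pass (adjusted p = 0.0974). These rows were chosen after their values were seen, near-identical copies share their reads, and the amount of such RNA left in a library also depends on the selection step, whose part was not tested. Every call was lost without control replicate 1, control replicate 2 or BAP1 KO replicate 2, and RNA45SN5 and RNA28SN5 also without WT replicate 2, either MLL4 KO library or BAP1 KO replicate 1 (adjusted p between 0.0522 and 0.109). Without all ribosomal RNA rows, an alternative chosen after seeing the data, 763 genes rose and 692 fell.

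The shares of smaller groups are to be read beside 4.68% higher and 4.13% lower of all genes. Of 54 EPH receptor, ephrin and guidance genes 6 rose (EPHB6, EFNB1, SEMA3F, SEMA4F, SEMA6C and PLXNA4; 11.1%) and 4 fell (SEMA3C, SEMA7A, NAV2 and NAV3; 7.41%). Without either control library 0 of them rose. Among 13 genes of fatty acid synthesis the desaturases FADS1 and FADS2 rose and ELOVL6 and ME1 fell, 15.4% each way, and 0 passed without either control library. Of 45 matrix genes LAMB1 and TIMP3 rose (4.44%) and MMP7 fell (2.22%), and of 24 NF-kB targets and cytokines TNFAIP2 and IL32 fell (8.33%). On chromosome 21, 19 of 172 tested genes fell (11%), and on chromosome 18, 18 of 215 (8.37%), beside 4.13% of all genes.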
